A study of Mus musculus with 8 samples.

Results

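The genes described here encode the core enzymes of mitochondrial fatty acid beta-oxidation, measured in the brown adipose tissue (BAT) of mice after thoracic aortic constriction (TAC) or sham surgery (Sham). The members were named by symbol and are the carnitine palmitoyltransferases Cpt1a, Cpt1b and Cpt2, the acyl-CoA dehydrogenases Acadvl, Acadl, Acadm and Acads, the trifunctional protein subunits Hadha and Hadhb, and the electron transfer enzyme Etfdh. All 10 had at least 1 probe whose RefSeq transcript carries that symbol. They took up 13 of the 55681 probes on the array and 10 of the 21154 genes that had a named probe.

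TAC is an operation that narrows the aorta so that the left ventricle works against a higher pressure. By their labels, all mice were male C57BL/6NCrSlc on normal chow, operated on at 11 weeks and sampled at 13 weeks of age. The groups differed in the operation, with 4 TAC and 4 Sham mice and 1 one-colour Agilent array per mouse. The source name and the treatment protocol put the sampling at 2 weeks after surgery, which fits the ages, and the description line puts it at 4 weeks. The scanner's intensities were used for 7 arrays, Sham 2 to 4 and TAC 1 to 4. A deposited table of scaled intensities added Sham 1. All 7 scanner arrays lay on 1 slide, with the Sham arrays in one row and the TAC arrays in the other, so that slide position and operation cannot be told apart. The number of arrays limits the precision of every value below.

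One TAC array, TAC 1, was unlike the rest. The leading principal component of the log2 levels took up 39.3% of their variance and put TAC 1 at 89.6, the other TAC arrays between -8.58 and 3.58, and the Sham arrays between -32.6 and -20.3. The differences of the members are therefore given with and without TAC 1. On the 7 arrays, 54.5% to 64.3% of the spots were well above background. All 12 genes of the brown adipocyte marker list, Ucp1 among them, were well above background on every array. This list also holds the general adipocyte genes Pparg, Adipoq, Plin1 and Fabp4.

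Brown adipocytes burn fatty acids in their mitochondria to make heat. Long-chain acyl-CoA enters through the carnitine shuttle, in which Cpt1 on the outer membrane makes acylcarnitine and Cpt2 on the inner membrane turns it back into acyl-CoA. Each turn of the spiral then takes an oxidation by a chain-length-specific acyl-CoA dehydrogenase, a hydration, a further oxidation and a thiolysis, with the trifunctional protein doing the last steps for long chains and Etfdh passing the electrons of the dehydrogenases to the respiratory chain. Nuclear receptors of the PPAR and ERR families are well known activators of these genes, and both can bind DNA elements built on the hexamer AGGTCA.

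Promoter sequences are shown for the genes around which the results turn, namely the pair of trifunctional protein genes, Cpt2 and Etfdh, whose TAC means lay furthest below Sham, and Cpt1a, the member whose mean went the other way. They come from RefSeq (mouse, GRCm38.p6), which gave a promoter for 9 of the 10 members. Cpt1b had no entry in that table. Hadha and Hadhb start on opposite strands of chromosome 5 with 272 bases between their starts, so their upstream windows overlap. The shared stretch of 228 bases is chr5:30155003-30155230, given on the + strand, and reads towards Hadhb. The others are the 250 bases before the start of the gene, 5′ to 3′ on the strand of the gene, at chr4:107923590-107923839 (- strand) for Cpt2, chr3:79628768-79629017 (- strand) for Etfdh and chr19:3323051-3323300 (+ strand) for Cpt1a. Capitals mark the hexamer AGGTCA on either strand.
Hadha-Hadhb: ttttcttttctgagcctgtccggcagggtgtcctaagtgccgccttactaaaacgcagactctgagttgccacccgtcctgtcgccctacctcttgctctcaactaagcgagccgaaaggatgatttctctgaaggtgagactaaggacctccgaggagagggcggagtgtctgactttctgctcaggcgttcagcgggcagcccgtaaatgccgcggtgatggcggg
Cpt2: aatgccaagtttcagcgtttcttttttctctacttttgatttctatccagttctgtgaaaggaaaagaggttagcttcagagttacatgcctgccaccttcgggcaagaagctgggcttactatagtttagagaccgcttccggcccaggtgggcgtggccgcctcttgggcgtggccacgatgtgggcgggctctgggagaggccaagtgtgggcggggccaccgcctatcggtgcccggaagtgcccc
Etfdh: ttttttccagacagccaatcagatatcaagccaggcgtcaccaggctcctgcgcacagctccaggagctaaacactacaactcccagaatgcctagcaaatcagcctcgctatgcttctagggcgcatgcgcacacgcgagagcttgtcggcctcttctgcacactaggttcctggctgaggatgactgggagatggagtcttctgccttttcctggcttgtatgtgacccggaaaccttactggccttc
Cpt1a: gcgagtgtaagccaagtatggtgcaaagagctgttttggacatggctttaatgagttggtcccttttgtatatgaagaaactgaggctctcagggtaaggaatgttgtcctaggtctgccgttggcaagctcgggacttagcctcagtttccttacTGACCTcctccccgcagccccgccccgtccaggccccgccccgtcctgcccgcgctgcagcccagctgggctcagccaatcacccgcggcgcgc

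Among the 4 stretches the hexamer is present in Cpt1a, where it lies on the opposite strand and begins 94 bases before the start. In windows of 300 bases (250 before the start and 50 after), 16.3% of 32851 mouse promoters held it on either strand, and 3 of the 9 members did. The other members were Acadvl, at 87 bases before the start on the gene's own strand, and Acadm, at 249 bases on the opposite strand. None of the 9 held a direct repeat of AGGTCA with 1 base between the copies, the usual PPAR element, which was present in 0.0396% of all promoters. None held TCAAGGTCA, the ERR-type site, which contains the hexamer and was present in 0.423%. These matches describe letters in a short window and say nothing of binding.

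Levels are given as log2 intensity relative to the 75th percentile of the array, on which 0 is the 75th percentile itself and a difference of 1 unit is a 2-fold difference. They are not compared between probes, which differ in how brightly they bind. Differences are TAC minus Sham with their standard errors (SE), and p-values are limma's, adjusted by the Benjamini-Hochberg method over the 33364 probes tested. All 13 probes were well above background on all 7 arrays, none was saturated, and all were tested.

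Of the 10 enzymes, 9 had a lower mean after TAC, with differences from -0.44 (Cpt2) to -0.13 (Acadl), and Cpt1a had a higher one at 0.20. The median difference of the members was -0.24, against -0.032 over all probes tested. With quantile normalization between arrays these medians were -0.093 and -0.017, and the differences of Acadvl, Acadm and Hadhb were -0.080, -0.093 and -0.093. None of the 10 passed an adjusted p-value of 0.05 in limma (lowest 0.318), and 0% of all probes did. At an unadjusted p-value under 0.05, Cpt2, Hadha and Etfdh were lower and none was higher, or 3 of 10 members, against 8.43% of all probes lower and 4.38% higher. Means below Sham were common on the array, at 55.8% of all probes. The count of 3 depended on single arrays. It was 0 without Sham 3 or without Sham 4, 1 without Sham 2 or without TAC 4, and 3 without TAC 1. The share of all probes lower at that threshold was 4.80% without Sham 3, 6.16% without Sham 4, 6.60% without Sham 2 and 7.47% without TAC 4. The differences of the same genes were -0.36 (Cpt2), -0.40 (Hadha) and -0.37 (Etfdh) without Sham 3, and -0.45, -0.41 and -0.48 without Sham 4. In bulk tissue, fewer cells of a type and less RNA per cell cannot be told apart.

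**Figure D1:**
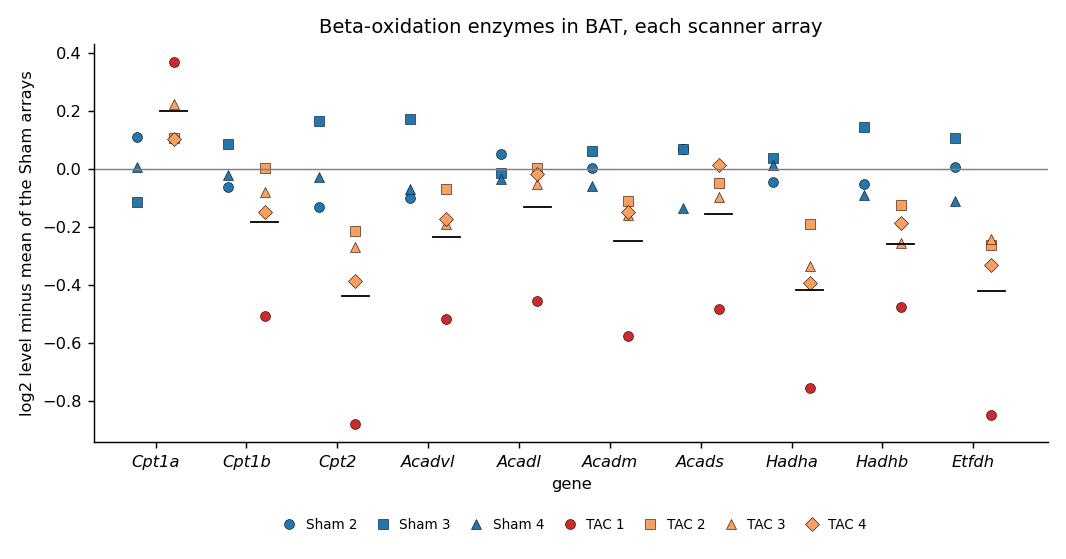
Level of each of the 10 enzymes on each of the 7 scanner arrays, as the log2 difference from the mean of the Sham arrays of that gene, with 1 point per array and a short line at the TAC mean. TAC 1 is the lowest array for every gene but Cpt1a, and all TAC points lie below all Sham points in Cpt2, Acadm, Hadha, Hadhb and Etfdh.

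Carnitine shuttle. Over the 7 arrays Cpt2 had the most negative difference of the 10 enzymes, and without TAC 1 Hadha did. The levels of Cpt2 were 6.80, 7.10 and 6.91 in Sham 2 to 4 and 6.06, 6.72, 6.67 and 6.55 in TAC 1 to 4. The groups did not overlap, with TAC 1 lowest of all. The difference was -0.44 (SE 0.18, adjusted p = 0.372), or a percent change in intensity of -26.2, with a 95% interval from -0.86 to -0.021. Without TAC 1 it was -0.29 (adjusted p = 0.343), which is 66.4% of the full difference. A second Cpt2 probe was dimmer and differed by about the same amount. It read 2.12, 2.05 and 1.90 in Sham and 1.36, 1.69, 1.72 and 1.74 in TAC, again with no overlap. Its difference was -0.40 (SE 0.12, adjusted p = 0.294) with TAC 1 and -0.31 without it. In the table of 8 arrays it was -0.29, with Sham 1 at 1.74 among TAC arrays of 1.55 to 1.91.

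Cpt1b, the muscle isoform of the outer-membrane enzyme and the usual one of brown fat, read 5.43, 5.57 and 5.47 in Sham and 4.98, 5.49, 5.41 and 5.34 in TAC. TAC 2 lay above Sham 2 and Sham 4, so the groups overlapped. The difference was -0.18 (SE 0.14, adjusted p = 0.584), with an interval from -0.50 to 0.14, and was -0.076 without TAC 1. The second Cpt1b probe gave 5.13, 5.22 and 5.25 in Sham and 4.88, 5.44, 5.39 and 5.14 in TAC, so that TAC 2 and TAC 3 were above all Sham arrays. Its difference was 0.014 (SE 0.15) and 0.13 without TAC 1. The probes of Cpt1b thus differed in sign, both within their error.

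Cpt1a, the liver isoform, was the member with a higher mean. Its brighter probe, spotted 10 times on each array, read 0.70, 0.47 and 0.60 in Sham and 0.96, 0.70, 0.81 and 0.69 in TAC. TAC 1 was the highest array, and TAC 2 and TAC 4 lay just under Sham 2. The difference was 0.20 (SE 0.10, adjusted p = 0.464), a percent change of 14.8, and 0.14 without TAC 1. The dimmer Cpt1a probe, at levels between -3.29 and -2.62, gave 0.056 (SE 0.18), and -0.055 without TAC 1. Its sign therefore rested on TAC 1.

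Acyl-CoA dehydrogenases. The 4 enzymes of this step had a median difference of -0.20, and of -0.09 without TAC 1, and none reached an unadjusted p-value of 0.05. Acadm, the medium-chain enzyme, was the one whose groups did not overlap. It read 8.76, 8.82 and 8.70 in Sham and 8.18, 8.65, 8.60 and 8.61 in TAC. TAC 2 to 4 were close together and TAC 1 lay far under them. The difference was -0.25 (SE 0.13, adjusted p = 0.466), with an interval from -0.56 to 0.060, and -0.14 without TAC 1.

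Acadvl, the very-long-chain enzyme of the inner membrane, read 9.38, 9.65 and 9.41 in Sham and 8.96, 9.41, 9.29 and 9.31 in TAC. TAC 2 lay among the Sham arrays. The difference was -0.24 (SE 0.13, adjusted p = 0.488) and -0.14 without TAC 1. Acadl, the long-chain enzyme, read 6.93, 6.87 and 6.85 in Sham and 6.43, 6.88, 6.83 and 6.86 in TAC. Every array but TAC 1 lay in a narrow band. The difference of -0.13 (SE 0.13, adjusted p = 0.684) was -0.024 without TAC 1, or 17.9% of the full value. Acads, the short-chain enzyme, read 4.75, 4.75 and 4.55 in Sham and 4.20, 4.63, 4.58 and 4.69 in TAC. Here too the other TAC arrays lay among the Sham arrays. The difference was -0.16 (SE 0.14, adjusted p = 0.654), and -0.045 without TAC 1.

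Trifunctional protein. Both subunits were below Sham on every TAC array. Hadha, the alpha subunit with the hydratase and long-chain hydroxyacyl-CoA dehydrogenase activities, read 5.28, 5.37 and 5.34 in Sham and 4.57, 5.14, 4.995 and 4.94 in TAC. The Sham arrays were close together and the nearest TAC array, TAC 2, lay below them all. Hadha had the smallest unadjusted p-value of the genes' leading probes, with a difference of -0.42 (SE 0.14, adjusted p = 0.318), a percent change of -25.3 and an interval from -0.75 to -0.091. Without TAC 1 it was -0.31 (adjusted p = 0.257), 73.3% of the full difference, with an interval from -0.52 to -0.100.

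Hadhb is the beta subunit with the thiolase activity, and its upstream window shares the stretch shown above with that of Hadha. It read 9.33, 9.53 and 9.29 in Sham and 8.91, 9.26, 9.13 and 9.20 in TAC. TAC 2 came within a few hundredths of Sham 4. The difference was -0.26 (SE 0.12, adjusted p = 0.401), a percent change of -16.6, and -0.19 without TAC 1. In the table of 8 arrays it was -0.20, and with Sham 1 included the groups overlapped. Whether the subunits differed from each other in their response was not tested.

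Electron transfer. Etfdh, the ubiquinone oxidoreductase that receives electrons from all acyl-CoA dehydrogenases through the electron transfer flavoprotein, read 7.06, 7.16 and 6.94 in Sham and 6.21, 6.79, 6.81 and 6.72 in TAC. The TAC arrays were all under the lowest Sham array, and TAC 1 was well under the rest. The difference was -0.42 (SE 0.16, adjusted p = 0.363), a percent change of -25.3, with an interval from -0.81 to -0.033. Without TAC 1 it was -0.28 (adjusted p = 0.293), or 66.2% of the full difference. The genes of the flavoprotein itself had differences of -0.055 for Etfa and 0.032 for Etfb, and of -0.0079 and 0.071 without TAC 1.

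**Figure D2:**
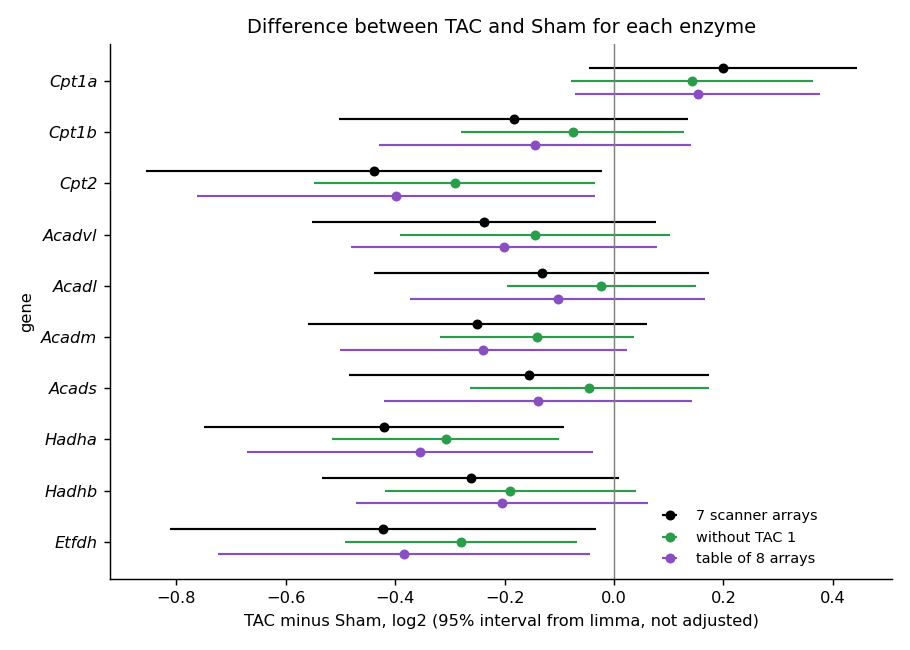
Difference between the TAC and Sham means of each enzyme in log2 units, with limma's unadjusted 95% intervals, for the 7 scanner arrays, the same arrays without TAC 1 and the table of 8 arrays. The intervals of Cpt2, Hadha and Etfdh lie below 0 in each of the 3 comparisons, and in every gene the point without TAC 1 is nearer to 0 than that of the 7 arrays.

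Taken per array, the mean of the 10 enzymes relative to the Sham mean was -0.017, 0.070 and -0.053 in Sham 2 to 4. It was -0.51 in TAC 1 and -0.092, -0.15 and -0.17 in TAC 2 to 4. In this mean, the TAC arrays lay below these 3 Sham arrays, and TAC 1 was the lowest array for 9 of the 10 enzymes. Without TAC 1 the median difference of the members was -0.14, against -0.016 over all probes. Of the 10 enzymes 9 were lower, against 17766 of 33364 probes. On the scanner arrays without TAC 1, Cpt2, Hadha and Etfdh were again the 3 members lower at an unadjusted p-value under 0.05, against 8.45% of all probes.

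Every TAC array lay below every Sham array for 5 of the 10 enzymes (Cpt2, Acadm, Hadha, Hadhb and Etfdh), against 10.4% of all probes, and above for none. Adding Sham 1 from the deposited table reduced this count to 3 (Cpt2, Acadm and Etfdh), against 6.29% of all probes. In that table Sham 1 was below the Sham mean for 9 of 10 enzymes, with a mean difference of -0.13 over the members, while the other Sham arrays lay at 0.037, 0.11 and -0.013 and TAC 1 to 4 at -0.48, -0.065, -0.12 and -0.15. Sham 1 thus lay below TAC 2 and TAC 3, and on the mean of the members the groups of the table overlapped. The median difference over 8 arrays was -0.20. Cpt2 (-0.40, adjusted p = 0.317), Hadha (-0.35, adjusted p = 0.310) and Etfdh (-0.38, adjusted p = 0.309) were the members lower at an unadjusted p-value under 0.05, against 9.56% of all probes. For Hadha, Sham 1 was at 5.21 in the table, under the TAC maximum of 5.32. In the table without TAC 1, 8 of 10 members were lower, against 18454 of 33364 probes, with a median of -0.12. Cpt2 (-0.25) and Etfdh (-0.24) were then lower at an unadjusted p-value under 0.05, or 2 members, against 8.64% of all probes. Hadha, at -0.25, no longer passed that threshold.

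Another 29 genes were listed around fatty acid oxidation. They include Acadsb and Acad8, dehydrogenases of branched-chain amino acid breakdown, and Acacb, described below. Of the 29, 23 had a lower mean after TAC, against 55.8% of all probes, and 6 a higher one. Their median was -0.14 (-0.08 without TAC 1). An unadjusted p-value under 0.05 was reached by 4, all lower, against 8.43% of all probes, and by 3 without TAC 1, and no adjusted p-value under 0.05 was seen (lowest 0.197). Upstream of the shuttle, Acsl5, an acyl-CoA synthetase that activates fatty acids, had the most negative difference of the 29. It read 4.05, 4.25 and 3.84 in Sham and 2.07, 3.13, 2.65 and 2.89 in TAC, with no overlap. The difference was -1.36 (SE 0.25, adjusted p = 0.197), and -1.16 without TAC 1. Acsl3, another synthetase, differed by -0.55 (SE 0.23, adjusted p = 0.385), and by -0.37 without TAC 1, where its unadjusted p-value was no longer under 0.05. Slc25a20, the carrier that brings acylcarnitine across the inner membrane, differed by -0.36, and by -0.18 without TAC 1. Acacb, which makes the malonyl-CoA that inhibits Cpt1, differed by -0.35 (SE 0.14, adjusted p = 0.381), and by -0.24 without TAC 1. Mlycd, which removes malonyl-CoA, differed by -0.23, and by -0.087 without TAC 1.

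Within the spiral, Acad9, a dehydrogenase that also serves complex I assembly, differed by -0.22 (SE 0.073, adjusted p = 0.318), with a difference of -0.21 without TAC 1. In the table of 8 arrays it was at -0.16, and its unadjusted p-value was not under 0.05. Of the list of 6 other acyl-CoA dehydrogenases that holds it, 4 were lower, against 55.8% of all probes, with a median of -0.10. Acad12 (0.15) and Acad10 (0.058) were higher. Without TAC 1 the median of this list was -0.008, with 3 lower, against 17766 of 33364 probes. The enzymes of hydration, oxidation and thiolysis had a median of -0.14, with 4 of 5 lower (Acat1 -0.22, Acaa2 -0.15, Echs1 -0.14) and Hsd17b10 at 0.11, and of -0.085 without TAC 1. Of the auxiliary enzymes for unsaturated fatty acids, Decr1 was at -0.34, Eci2 at -0.26 and Eci1 at 0.059, and without TAC 1 they were at -0.23, -0.14 and 0.12. Among the 3 mitochondrial thioesterases, which release free fatty acids, Acot2 differed by -0.35 (-0.15 without TAC 1), Acot9 by -0.065 and Acot13 by -0.051.

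The regulators of these genes divided in direction about as all probes did. Of 10 transcriptional regulators 6 were lower and 4 higher, against 55.8% of all probes lower, with a median of -0.02 (0.03 without TAC 1). Esrrg, an estrogen-related receptor, was the 1 with an unadjusted p-value under 0.05, against 4.38% of all probes higher. It read 0.71, 0.62 and 0.76 in Sham and 0.91, 0.86, 0.92 and 1.13 in TAC. Every TAC array lay above every Sham array, as for 1866 of 33364 probes. The difference was 0.26 (SE 0.096, adjusted p = 0.349), and 0.28 without TAC 1. Esrra, its relative, differed by -0.23 (-0.15 without TAC 1), Ppara by -0.15 and Pparg by 0.10. The coactivator Ppargc1a differed by -0.009 (SE 0.42), and by 0.26 without TAC 1.

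**Figure D3:**
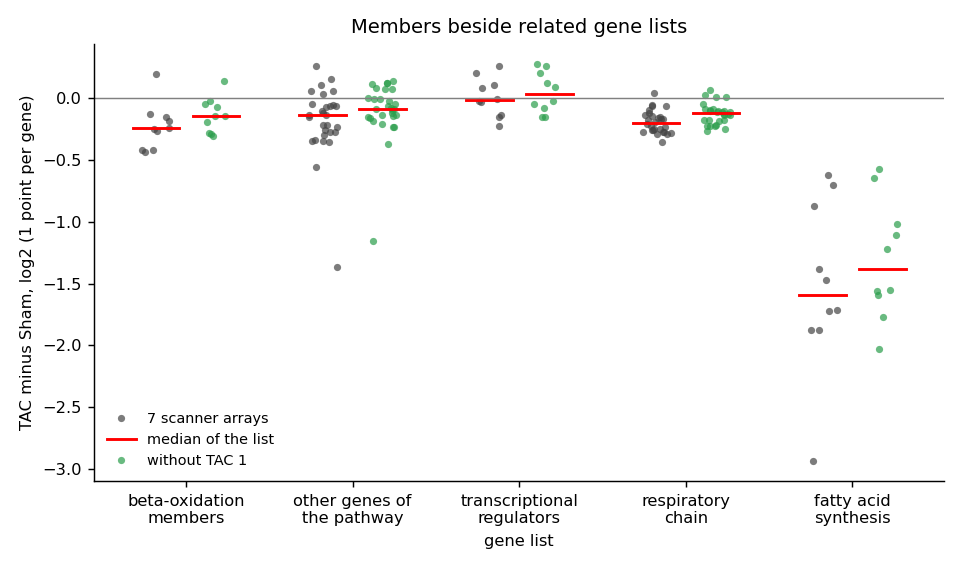
Difference between the TAC and Sham means in log2 units for each gene of 5 lists, with 1 point per gene and a line at the median of the list, for the 7 scanner arrays (grey) and without TAC 1 (green). With all 7 arrays the medians of the beta-oxidation members and the respiratory chain lie at -0.24 and -0.20, that of the regulators at -0.02 and that of fatty acid synthesis at -1.59.

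Of 28 nuclear subunits of the respiratory chain, which take up the electrons from beta-oxidation, 27 had a lower mean, against 55.8% of all probes. Their median was -0.20. Without TAC 1 it was -0.12, with 24 lower, against 17766 of 33364 probes. With all 7 arrays, 6 were lower at an unadjusted p-value under 0.05, against 8.43% of all probes. Among them were Ndufa10 (-0.29), Sdhd (-0.27) and Uqcrc2 (-0.27). In the table of 8 arrays, Sdhd (-0.24) and Uqcrfs1 (-0.30) were the subunits lower at that threshold, against 9.56% of all probes. Ndufa10 and Uqcrc2, both at -0.20 there, no longer passed it. In the opposing pathway, fatty acid synthesis, all 10 genes had a lower mean, with a median of -1.59 (-1.38 without TAC 1), and 9 were lower at an unadjusted p-value under 0.05. The leading genes by p-value were Acss2 (-1.71), Acly (-1.88) and Acaca (-1.72). None passed the adjusted threshold (lowest adjusted p = 0.196). Whether the lists differed from each other was not tested.

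The 5 genes whose pattern over the 7 arrays was most like the mean of the members were sought among 7023 named genes at least as bright as the dimmest member. Likeness was the root mean square difference, in log2 units, between the deviations from the Sham mean. They were Ndufa9 (0.0127) and Sdhaf4 (0.0215), a subunit of complex I and an assembly factor of complex II, Mrps33 (0.0147), a mitochondrial ribosomal protein, Chmp5 (0.0195), an ESCRT protein, and Cnih1 (0.0200), a cargo receptor of the secretory pathway. On the same measure the members themselves ranged from 0.0278 for Acadm to 0.392 for Cpt1a.

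Markers of several cell types also set TAC 1 apart. The brown adipocyte markers had a median difference of -0.19, with 10 of 12 lower, against 55.8% of all probes. Ucp1 (-0.61), Otop1 (-0.90) and Plin1 (-0.35) were lower at unadjusted p-values under 0.05, against 8.43% of all probes. Without TAC 1 the median was -0.13, with Ucp1 at -0.42, Otop1 at -0.60 and Plin1 at -0.26. Plin1 then no longer had an unadjusted p-value under 0.05, while Elovl3 (-1.47) did, against 8.45% of all probes lower at that threshold. Adipoq was higher at the same threshold without TAC 1 (0.25), as were 1562 of 33364 probes. Their summed linear level, relative to the 75th percentile, was 4913 to 5937 in Sham, 3963 in TAC 1 and 4957 to 5251 in the other TAC arrays. All 12 macrophage markers were detected, with a summed level of 50.6 to 53.9 in Sham, 111 in TAC 1 and 42.7 to 50.2 in TAC 2 to 4. Their median difference was 0.09, and -0.33 without TAC 1. Without TAC 1, 9 of 12 were lower, against 17766 of 33364 probes. Of these, 6 were lower at an unadjusted p-value under 0.05, against 8.45% of all probes. Cd14 was higher at that threshold both with TAC 1 (0.38) and without it (0.39). The lymphocyte markers, 7 of 10 tested, summed to 2.63 to 3.62 in Sham, 5.44 in TAC 1 and 2.59 to 3.07 in the other TAC arrays. All 12 skeletal muscle markers had a higher mean after TAC, with a median of 1.02 (0.79 without TAC 1) and none at an unadjusted p-value under 0.05. Their summed level was 44.9, 162 and 81.8 in Sham 2 to 4 and 260.2, 207, 57.0 and 264 in TAC 1 to 4, so that TAC 1, TAC 2 and TAC 4 lay above every Sham array and TAC 3 did not. The fibroblast markers summed to 175 to 215 in Sham, 261 in TAC 1 and 174 to 210 in TAC 2 to 4. The endothelial markers summed to 39.6 to 40.7, 45.3 and 39.3 to 41.7 in the same order, and the erythroid markers to 378 to 658, 506 and 312 to 525. Emcn, an endothelial marker, was higher at an unadjusted p-value under 0.05 with TAC 1 (0.39, against 4.38% of all probes) and without it (0.35). No marker in these lists was below background on every array. The part of these cells in the results on the enzymes was not tested.

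**Figure D4:**
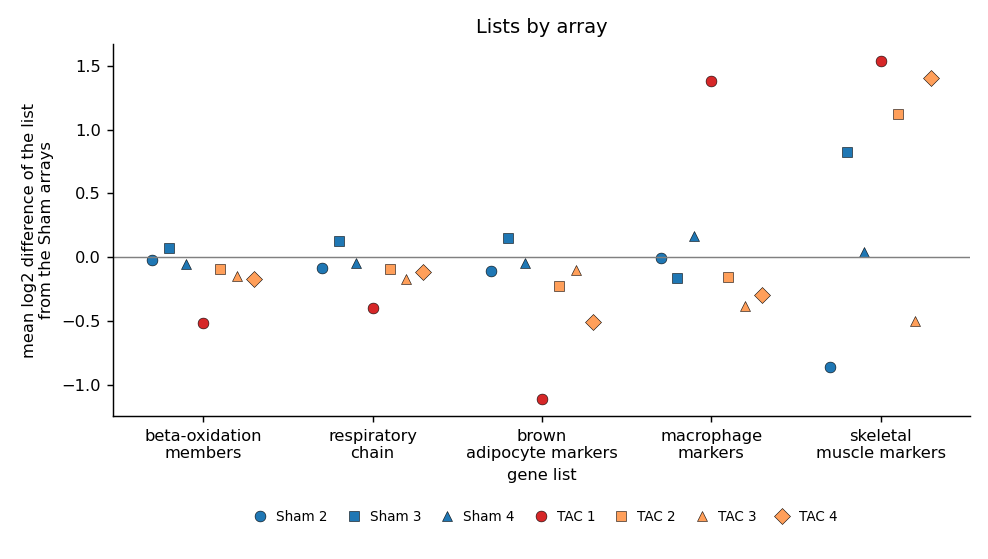
Mean over the genes of each of 5 lists of the log2 difference from the mean of the Sham arrays, with 1 point for each of the 7 scanner arrays. In TAC 1 the members lie at -0.51, the brown adipocyte markers at -1.11, the macrophage markers at 1.38 and the skeletal muscle markers at 1.54, and in TAC 2 and TAC 4 the muscle markers lie at 1.12 and 1.41. In TAC 2 to 4 the members lie between -0.17 and -0.092. The brown adipocyte mean in TAC 1 takes in Elovl3 at -5.54, Dio2 at -2.59 and Otop1 at -1.79. The other brown adipocyte markers lie between -1.17 (Ucp1) and 0.15 (Pparg) there.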

How the data were processed

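RNA of BAT from Sham and TAC mice was labelled with Cy3 and hybridized to one-colour Agilent arrays. The authors extracted the spots with Agilent Feature Extraction 10.7.1.1, according to the submitters' processing notes, and deposited scanner intensities of 7 arrays, background-subtracted and not scaled between arrays. They also deposited a table of intensities of 8 arrays, in which Sham 1 has its only values used here. On each of the 7 arrays, 100% of its single-spot probes above 100 units were the scanner value times one factor, within 1%, and its 75th percentiles were 1.002 to 1.004, so it holds the intensities divided by the 75th percentile.

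Outlier spots (134 to 191 per array) were left out of 59305 spots that are not controls, log2 intensity was taken minus the 75th percentile of the array, and spots of a probe were averaged. Tested probes had to exceed background clearly on 3 or more arrays, with values on 2 or more per group. Groups were compared with lmFit and eBayes (limma 3.58.1, R 4.3.3) with Benjamini-Hochberg adjustment, without a replicate block. The test was checked on simulated data. The labels state independent samples, and p-values measure the spread between these mice on 1 slide.

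Symbols came from a RefSeq table (GRCm38.p6) through accessions without versions and named 50.3% of the probes. The array was designed on another assembly. The brightest probe stands for a gene. Genes named are every probe of the members and the 5 genes most like the members. Of each other list the 3 genes of smallest p-value were to be named, but not all of these are given. Further genes of these lists were added after their values were seen. The members and lists were chosen with earlier results of these data known. Alternatives were normexp (offset 50) on the median signal, because the files hold no mean signal, scaling on the median, quantile normalization, the table of 8 and of the same 7 arrays, the table without TAC 1, other filters, outlier spots kept, a variance trend, array weights, a block for the replicate number, the methods' t-test, the mean of a gene's probes, and each array left out.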

Additional observations from a re-analysis of the deposited data

Results flagged for a closer look

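In 4 of 26 groups of 4 arrays examined over the 13 probes of the members, a single array lay far from the other 3, as measured by its gap to the nearest array divided by the range of the group, past the 95% critical value of Dixon's test. All were TAC 1 as the lowest TAC array. The gap was 0.896 of the range for Acadm, 0.879 for Acadl, 0.863 for the second Cpt2 probe and 0.851 for Etfdh. Chance flags about 5% of such groups, and the 4 share a single array.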

How the results depend on the processing

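Of 220 values of the members under 22 alternatives, 219 kept their direction and their side of the adjusted threshold, and Acadl turned to 0.0022 in the table without TAC 1. No member passed an adjusted p-value of 0.05 under any of them (lowest 0.197). The number of probes that did, 0 in limma, was 1 with normexp, with median scaling and with array weights, and 0 to 8 with 1 array left out (8 without TAC 4). The number of members lower at an unadjusted p-value under 0.05, 3 in limma, was 1 in the methods' t-test (Hadha, which gave 0 after adjustment) and 0 to 4 with 1 array left out. The share of all probes was 7.75% in the t-test and 4.80% to 8.98% with 1 array left out. The number of members with every TAC array below every Sham array, 5 in the scanner values, was 3 in the table of 8 arrays, 3 in the table without TAC 1 and 5 to 7 with 1 array left out. Of all 33364 probes, 3486 did so in the scanner values and 2100 in the table of 8 arrays. Without TAC 1 these were 4211 in the scanner values, beside 5 members, and 2752 in the table. The median of the members ranged from -0.29 to -0.093, the latter with quantile normalization, and was -0.29 to -0.14 with 1 array left out. The median of all probes was 0.006 without the filter on dim probes. With the replicate number as a block, the median was -0.14 over 7 arrays, where TAC 1 has no partner, with 2 members lower at an unadjusted p-value under 0.05, and -0.20 with 3 members over the table. The share of all probes lower at that threshold was 7.44% over the 7 arrays and 10.4% over the table. The deviations of arrays of the same number correlated at 0.00093, -0.025 and -0.021 in the scanner values. In the table they correlated at 0.27 for number 1 and at 0.020, 0.056 and 0.020 for the others. Number 1 cannot be checked in the scanner values, which lack Sham 1. The labels state independent samples, and the numbers were not taken as pairs.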
